A study of Mus musculus with 15 samples.

Results

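The 10 genes described here encode Hunk and 9 other members of the AMPK-related kinase family: Brsk1, Brsk2, Sik1, Sik2, Sik3, Mark1, Mark2, Mark3 and Mark4. They were the rows of the count table and of the variance-stabilized table that carry these symbols, 10 of 56748 gene identifiers, and all 10 were among the 22998 genes with enough counts to be tested. The values that led to the choice were those of Hunk in the comparisons with sham, so these are given as a description with no test, while the other 9 genes were taken as its family. The series holds RNA sequencing of dissected cortex from wildtype C57BL/6J mice, which the sample titles call somatosensory and the design text sensorimotor. Each of 15 libraries came from 1 of 3 groups of 5 animals given a single session of repetitive transcranial magnetic stimulation, in which a coil over the head induces current in the brain. The groups were intermittent theta-burst stimulation (iTBS), continuous theta-burst stimulation (cTBS) and sham, all killed 3 hours after the session. No transgene or drug is named for any group, and the sources used here give neither age nor sex.

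AMPK-related kinases are serine/threonine kinases whose catalytic domains resemble that of the energy sensor AMPK. Most of them are switched on when the kinase LKB1, the product of Stk11, phosphorylates their activation loop. The salt-inducible kinases (SIKs) phosphorylate CRTC coactivators and class IIa histone deacetylases, which then bind 14-3-3 proteins and stay in the cytoplasm, and Sik1 is itself a CREB target gene that cAMP and neuronal activity can induce. The MARK kinases phosphorylate tau and other microtubule-associated proteins, and the BRSK kinases (SAD kinases) act in neuronal polarity and at the presynaptic terminal. Hunk, named as a hormonally up-regulated kinase associated with Neu, is a less studied member of the family.

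The promoters of Hunk and Sik2 are shown because these 2 genes had the largest group differences of the 10 in opposite directions, and that of Sik3 because it holds the most TGACG motifs of the promoters matched here. Each sequence is the 250 bases upstream of the annotated start, 5′ to 3′ on the gene's strand, from RefSeq on GRCm38.p6, and 8 of the 10 genes matched an entry. Capitals mark matches on either strand to the GC box GGGCGG, the core TGACG of the cAMP response element (CRE), the CCAAT box CCAAT or the TATA box TATAAA, and matches may touch or share a base.
Hunk, chr16:90386147-90386396, plus strand: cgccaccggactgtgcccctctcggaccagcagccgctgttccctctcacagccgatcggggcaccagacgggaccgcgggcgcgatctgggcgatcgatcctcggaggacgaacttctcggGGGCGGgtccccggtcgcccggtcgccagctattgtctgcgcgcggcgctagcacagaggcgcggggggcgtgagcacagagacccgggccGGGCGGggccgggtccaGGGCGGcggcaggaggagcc
Sik2, chr9:51009074-51009323, minus strand: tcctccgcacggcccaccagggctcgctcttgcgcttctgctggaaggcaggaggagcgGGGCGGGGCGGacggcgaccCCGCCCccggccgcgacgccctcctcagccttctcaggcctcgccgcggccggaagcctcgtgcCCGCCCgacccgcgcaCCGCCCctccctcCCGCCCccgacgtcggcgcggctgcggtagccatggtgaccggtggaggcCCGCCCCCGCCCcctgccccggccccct
Sik3, chr9:46012570-46012819, plus strand: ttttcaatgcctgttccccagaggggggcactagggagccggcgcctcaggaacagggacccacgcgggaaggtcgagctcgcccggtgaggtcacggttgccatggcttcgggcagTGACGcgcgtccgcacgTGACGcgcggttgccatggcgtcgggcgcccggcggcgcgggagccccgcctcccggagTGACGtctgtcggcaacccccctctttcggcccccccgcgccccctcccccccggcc

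The Hunk promoter was 74.8% G and C and held 3 GC boxes, and the Sik2 promoter was 80.0% G and C and held 8. The median over all promoters was 52.4%, and 32.7% of 32851 promoters of this length held at least 1 GC box. The Sik3 promoter held 3 TGACG motifs, a motif present in 17.8% of all promoters, and no GC box. Neither the Hunk nor the Sik2 window held a TGACG motif. The full CRE, TGACGTCA, was found in none of the promoters of the 8 matched genes and in 1.55% of all promoters. Sik1 and Mark4 had no matched entry, so their promoters were not examined for any of these motifs.

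The libraries held 15385070 to 47807723 counts each and between 32299 and 35449 detected genes, and the counts of the 10 genes were compared as CPM, counts scaled to a common library size after TMM normalization. All 8 cortical excitatory neuron markers were detected in every library, with summed levels of 4242 to 6256 CPM. Markers of striatal projection neurons were also detected in every library, at 379 to 1333 summed CPM in sham, 571 to 1676 in iTBS and 534 to 1598 in cTBS, with medians of 524, 741 and 1391 CPM. All 10 had higher estimates after both protocols than after sham, with median log2 fold changes of 0.26 for iTBS and 0.75 for cTBS. For cTBS 4 of the 10 were higher at an unadjusted p under 0.05 in edgeR, beside 6.8% of all tested genes, and none passed the adjusted threshold. The 7 thalamic markers had lower estimates in both comparisons, with medians of -0.48 and -0.44. Their summed level was 331 CPM in sham 2 and 92.8 to 119 CPM in the other libraries. The mean log2 CPM of 11 nuclear-retained RNAs, here called the nuclear RNA level, was 7.90 ± 0.64 in sham, 7.96 ± 0.48 in iTBS and 7.10 ± 0.53 in cTBS (SD, n = 5 each). Choroid plexus markers, of which 8 of 9 were tested, summed to 7.97 to 289 CPM in sham, 6.70 to 79.8 in iTBS and 10.04 to 268 in cTBS, and their median log2 fold changes against sham were -1.34 for iTBS and -0.61 for cTBS. Without sham 2, sham 5 and cTBS 4, left out for high choroid plexus RNA in earlier results, the log2 fold change against sham was 0.27 after iTBS and 0.40 after cTBS for Hunk, and -0.36 after cTBS for Sik2. For cTBS against sham, all 7 interneuron, 7 oligodendrocyte, 6 astrocyte and 6 microglia markers had higher estimates. Their median log2 fold changes were 0.17, 0.22, 0.12 and 0.17. At an unadjusted p under 0.05 in edgeR, 3, 2, 1 and 3 were higher, beside 6.8% of all tested genes. Between the protocols 3, 5, 3 and 3 were lower in iTBS, beside 10.6%. None passed the adjusted threshold. With the nuclear RNA level in the model, these medians for cTBS against sham were 0.02 for interneuron, 0.14 for oligodendrocyte, 0.01 for astrocyte and 0.04 for microglia markers. That of the striatal markers was then 1.13. The part of that level in the marker values was not tested beyond this fit. Of 5 endothelial markers, 2 had higher and 3 lower estimates for cTBS against sham. In bulk tissue, fewer cells of a type and less RNA per cell cannot be told apart.

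Per kilobase of exon and on average over the 15 libraries, the family spanned about an order of magnitude. The neuronal kinases Brsk1 and Brsk2 stood at the top and Hunk, with Sik2 near it, at the bottom. Over the 15 libraries Brsk1 stood at 40.6 ± 4.05 CPM per kb and Brsk2 at 35.8 ± 2.75 (SD, n = 15). These neighbours differed by about their spread. Mark1 followed at 29.4 ± 1.49 CPM per kb, Mark2 at 21.7 ± 1.41, Sik3 at 19.5 ± 1.52 and Mark4 at 16.0 ± 1.29. Mark2 and Sik3 differed by less than the sum of their SDs. Mark3 stood at 8.56 ± 0.40 CPM per kb and Sik1 at 7.31 ± 1.60, which overlapped. Sik2 at 4.71 ± 0.72 and Hunk at 3.77 ± 0.49 CPM per kb were the lowest levels and lay within the sum of their SDs. These means pool groups in which the order of Hunk and Sik2 differed. Hunk was below Sik2 in sham (3.23 ± 0.11 and 5.21 ± 0.53) and in iTBS (3.88 ± 0.29 and 4.94 ± 0.38). In cTBS Hunk stood at 4.19 ± 0.36 and Sik2 at 3.97 ± 0.56 (SD, n = 5 each). Among the SIKs, Sik3 therefore had the highest level per exon length. Exon lengths are unions of annotated exons, so a gene whose long exons are little used has its level per kb understated.

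**Figure D1:**
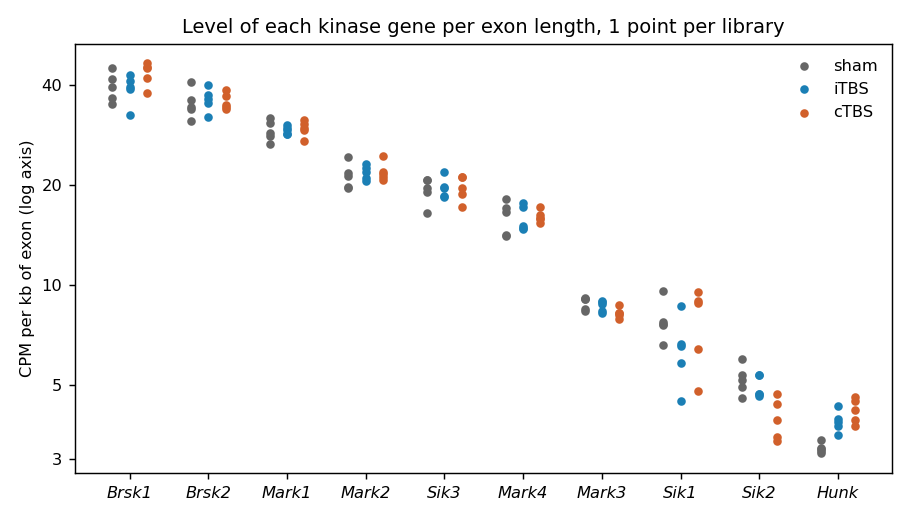
Level of each of the 10 kinase genes in CPM per kb of exon (log axis), 1 point per library, coloured by group. Averaged over all libraries, Brsk1 and Brsk2 are highest, at 40.6 and 35.8, and Hunk is lowest, at 3.77. In cTBS alone Hunk is at 4.19 and Sik2 at 3.97.

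Hunk was higher after both stimulation protocols than after sham. Its levels in the 5 sham libraries were 26.1, 26.6, 28.7, 27.0 and 27.2 CPM. After iTBS they were 32.5, 33.2, 31.5, 36.3 and 29.6 CPM, and after cTBS 31.6, 32.9, 38.7, 37.6 and 35.2 CPM. The highest sham library lay at 28.7 CPM and the lowest of the 10 stimulated libraries at 29.6 CPM, so neither stimulated group overlapped sham. Among all tested genes, 0.243% were higher without overlap in iTBS and 0.626% in cTBS; Hunk was proposed for this contrast, so nothing is read from these shares.

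The group means of Hunk were 27.1 ± 0.96 CPM in sham, 32.6 ± 2.46 in iTBS and 35.2 ± 3.03 in cTBS (SD, n = 5 each), from 498 to 1562 counts per library. The log2 fold change was 0.27 ± 0.07 (SE) for iTBS against sham and 0.38 ± 0.07 for cTBS against sham, or 20.5% and 29.9% higher. Both comparisons use the same 5 sham libraries. The nuclear RNA level, which differed between cTBS and sham, moved little with Hunk among libraries of 1 group: the slope was 0.03 ± 0.05 log2 units per unit. Adjusted for that level the differences were 0.27 and 0.40. The striatal marker level was, like Hunk, higher in both stimulated groups, and with that level added the differences were 0.30 and 0.49. The part of either level in the Hunk values was not tested beyond these fits.

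Between the protocols, Hunk was not shown to differ. Its log2 fold change for iTBS against cTBS was -0.11 ± 0.07 (SE; 95% interval -0.25 to 0.03, adjusted p = 0.268, edgeR quasi-likelihood test with Benjamini-Hochberg adjustment). The 5 iTBS values, from 29.6 to 36.3 CPM, overlapped the 5 cTBS values, from 31.6 to 38.7 CPM.

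**Figure D2:**
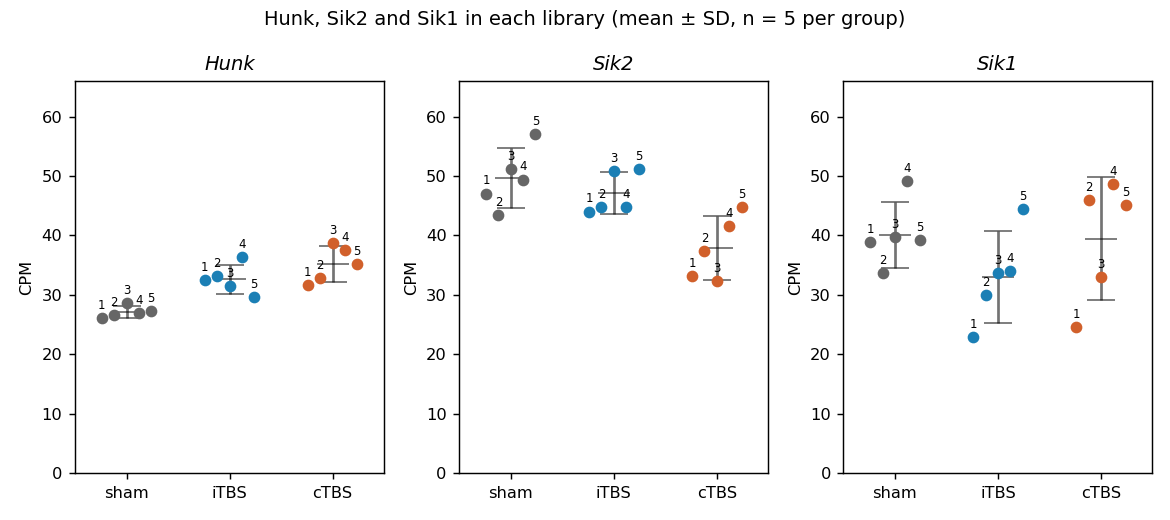
Hunk, Sik2 and Sik1 in CPM, 1 point per library, with the mean and SD of each group (n = 5). Every Hunk value in iTBS and cTBS lies above the highest sham value of 28.7 CPM, Sik2 is lowest in cTBS, and the 3 groups overlap for Sik1.

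Sik2, a kinase that phosphorylates CRTC coactivators, was lower after cTBS than after sham, but the difference did not pass the adjusted threshold of 0.05. Its sham libraries held 47.1, 43.5, 51.2, 49.4 and 57.1 CPM. The iTBS libraries held 44.0, 44.7, 50.9, 44.8 and 51.2 CPM. The cTBS libraries held 33.1, 37.3, 32.4, 41.7 and 44.9 CPM. Only cTBS 5, at 44.9 CPM, reached above the lowest sham library, at 43.5, whereas the iTBS and sham values intermingled.

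The means of Sik2 were 49.7 ± 5.07 CPM in sham, 47.1 in iTBS (range 44.0 to 51.2) and 37.9 ± 5.38 in cTBS (SD, n = 5 each). The log2 fold change for cTBS against sham was -0.39 ± 0.09 (SE), or 23.7% lower (edgeR adjusted p = 0.144, unadjusted p = 0.000643). The call depended on the tool and on 1 library: the adjusted p was 0.0455 with DESeq2, 0.0237 with limma-voom using sample quality weights and 0.151 with limma-trend, and 0.0240 in edgeR without sham 4. For iTBS against cTBS the log2 fold change was 0.31 ± 0.09 (edgeR adjusted p = 0.0838). That adjusted p was 0.0156 with weighted limma-voom and 0.0571 with DESeq2. In edgeR it was 0.0329 without cTBS 5 and 0.0486 without sham 4. For iTBS against sham the value was -0.08 ± 0.09, with a 95% interval from -0.27 to 0.12.

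Adjusted for the nuclear RNA level Sik2 was at -0.39 for cTBS against sham (adjusted p = 0.809), and its own slope on that level was -0.00 ± 0.07. Sik2 overlaps Ppp2r1b, a phosphatase scaffold subunit gene on the opposite strand, and the sources used here do not give the strand setting of the authors' counting. Ppp2r1b had 8375 counts over all libraries beside 21834 for Sik2, and its log2 fold change for cTBS against sham was -0.19 ± 0.08 (edgeR adjusted p = 0.173). Its part in the Sik2 values was not tested.

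Sik1, the activity-induced member, varied most among libraries of the same group. Its sham values were 38.9, 33.7, 39.7, 49.1 and 39.2 CPM. The iTBS values were 22.9, 29.9, 33.7, 34.0 and 44.4 CPM, and the cTBS values were 24.6, 46.0, 32.9, 48.7 and 45.2 CPM. The 3 groups overlapped, and the within-group SD of 0.33 on the log2 scale was the largest of the 10 genes. Against sham the log2 fold change was -0.29 ± 0.18 after iTBS (SE; edgeR adjusted p = 1.00) and -0.03 ± 0.18 after cTBS, and between the protocols, iTBS against cTBS, it was -0.26 ± 0.18. At this spread the 95% interval for iTBS against sham ran from -0.67 to 0.10.

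Sik3, the most abundant SIK, differed little between groups. It ranged from 154 to 194 CPM in sham, 172 to 204 in iTBS and 160 to 198 in cTBS. Against sham its log2 fold change was 0.02 ± 0.08 after either protocol, and between the protocols it was 0.00 ± 0.08 (SE). The 95% interval for cTBS against sham, from -0.14 to 0.18, did not include the Sik2 estimate of -0.39.

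The BRSK kinases were abundant in all groups. Brsk1 averaged 162 CPM in sham (range 143 to 185), 160.0 in iTBS (133 to 176) and 178 in cTBS (156 to 191). Its log2 fold change for cTBS against sham was 0.13 ± 0.08 (SE), and that between the protocols, iTBS against cTBS, was -0.15 ± 0.08 (edgeR adjusted p = 0.329 and 0.228). Brsk2 averaged 218 ± 22.4, 224 ± 18.1 and 221 ± 12.8 CPM in the same order (SD, n = 5 each). All its comparisons were within 0.04 of 0 on the log2 scale, with SEs of 0.08.

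Of the microtubule-affinity-regulating kinases, Mark3 had the largest difference. Its levels were 85.5 ± 3.80 CPM in sham, 83.8 ± 3.01 in iTBS and 79.8 ± 2.88 in cTBS (SD, n = 5 each), and its log2 fold change for cTBS against sham was -0.10 ± 0.05 (SE; edgeR adjusted p = 0.214). Mark1, Mark2 and Mark4 had log2 fold changes within 0.04 of 0 in all 3 comparisons. Their ranges over the 15 libraries were 116 to 139 CPM for Mark1, 156 to 194 for Mark2 and 65.5 to 84.7 for Mark4. For cTBS against sham the 95% intervals were -0.10 to 0.14, -0.10 to 0.18 and -0.15 to 0.17, so differences of the size seen for Sik2 lay outside them.

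**Figure D3:**
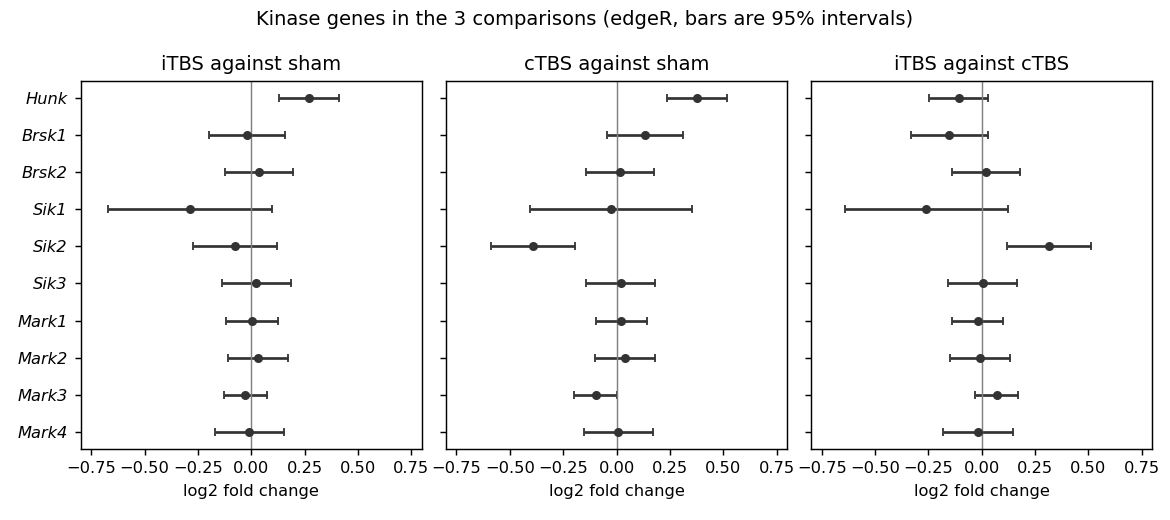
Log2 fold change of each of the 10 kinase genes in the 3 comparisons, with 95% intervals from the edgeR fit. Hunk is at 0.27 and 0.38 against sham, Sik2 at -0.39 for cTBS against sham, and most others lie near 0. The Hunk values against sham led to the choice of these genes. Their intervals give the precision of the fitted estimates and are not read as a test, whether or not they include 0.

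As a family the 10 genes did not move in 1 direction. Over all tested genes edgeR called 0% past an adjusted p of 0.05 in each comparison. At an unadjusted p under 0.05 it called 1.93% of genes when iTBS was set against sham (0.952% higher, 0.974% lower). The share was 24.4% when cTBS was set against sham (6.8% higher, 17.6% lower) and 30.6% between the protocols (20% higher in iTBS, 10.6% lower). DESeq2 called 0, 471 and 2699 genes past the adjusted threshold in the same order, limma-voom with sample quality weights 0, 5461 and 6853, and limma-trend 0 in each. Without sham 4, edgeR called 5726 genes for cTBS against sham. Between the protocols it called 4474 without iTBS 1, 3637 without sham 4 and 3380 without cTBS 5. Hunk is left out of the tally against sham, since its values there led to the choice. Of the 9 other kinases, 0 passed the unadjusted threshold in edgeR for iTBS against sham and 1, Sik2, for cTBS against sham. Between the protocols 1 of all 10 passed, again Sik2. The shares of kinases in the comparisons with cTBS were no higher than those of all genes. The median log2 fold changes of the 10, Hunk included, were -0.00, 0.02 and -0.01, beside -0.00, -0.02 and 0.03 over all tested genes.

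Among libraries of the same group, 4 of the kinases fell as the nuclear RNA level rose. The slopes were -0.16 ± 0.04 log2 units per unit for Brsk2 (SE; edgeR adjusted p = 0.00535), -0.16 ± 0.05 for Mark4 (0.00987), -0.13 ± 0.04 for Mark2 (0.0122) and -0.15 ± 0.05 for Brsk1 (0.0290). None of the 10 had a positive slope past the threshold. Over all tested genes 44.9% had a slope past it, 16.4% negative and 28.6% positive. Without sham 4 the slopes of Brsk1 and Mark2 missed the threshold (adjusted p = 0.110 and 0.0546), and without sham 1 that of Brsk1 did (0.0531). The slopes of Sik3 and Mark1, which missed it here (adjusted p = 0.0912 and 0.137), passed with quality-weighted limma-voom, RLE size factors or no filter on low counts. Sik3 also passed without iTBS 1, cTBS 1, cTBS 3 or cTBS 5, and Mark1 without cTBS 1, cTBS 3 or iTBS 5.

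Adjusted for the nuclear RNA level, the cTBS against sham values became -0.11 for Brsk2, -0.12 for Mark4, -0.06 for Mark2 and 0.01 for Brsk1. The nuclear RNA level was lower in cTBS than in sham, and its part in the group values of these 4 genes was not tested beyond this fit.

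**Figure D4:**
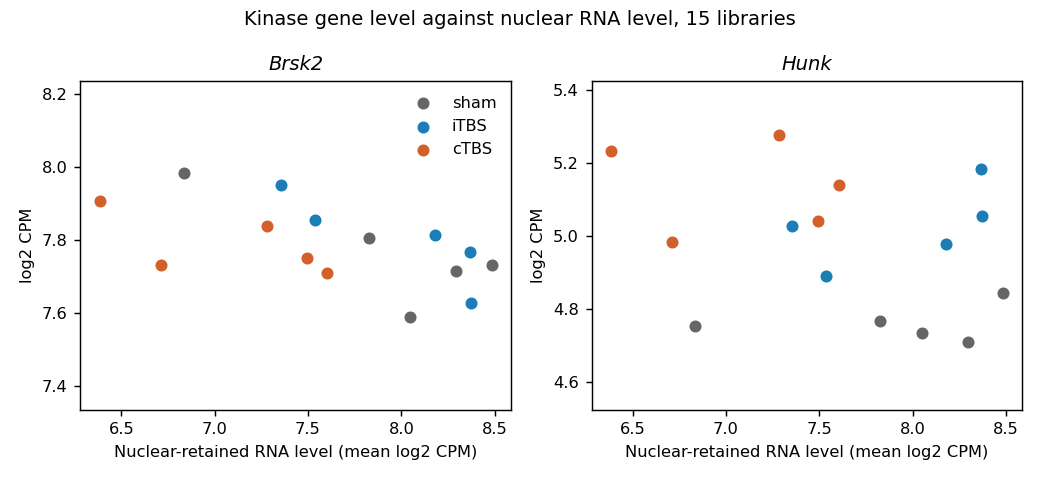
Log2 CPM of kinase genes against the nuclear RNA level (mean log2 CPM of 11 nuclear-retained RNAs), 1 point per library, coloured by group. The slope within groups is -0.16 for Brsk2 and 0.03 for Hunk.

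The labels also number the libraries from 1 to 15. In a slope on that number described after the data were seen, Sik1 was 0.70 ± 0.19 log2 units higher across the whole range (SE; edgeR unadjusted p = 0.00200, adjusted p = 0.415) and Sik2 0.34 ± 0.10 (unadjusted p = 0.00282, adjusted p = 0.424). At an unadjusted p under 0.05, 7.44% of all genes had such a slope, and 0% passed the adjusted threshold. All 10 kinase slopes were positive, 2 of them past that unadjusted threshold, and Hunk had 0.08 ± 0.09. The share of positive slopes over all tested genes is not given here, so nothing is read from this shared direction. With the number as a covariate, Sik2 was at -0.36 for cTBS against sham. What the number stands for is not given in the labels.

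The kinases also differed in which of them varied together. After group means were removed, 34 of the 45 pairs had a positive Pearson r over the 15 libraries and 14 were above 0.5, as a description. The highest were 0.84 for Brsk2 with Mark4, 0.82 for Brsk2 with Mark1 and 0.80 for Mark1 with Mark2. Sik1 and Sik2 had 0.68. Pairs with Hunk ran from -0.39, with Sik3, to 0.21, with Mark3. All of these points share libraries, depth and the nuclear RNA level. Pairs of other genes were not counted, so nothing about the family is read from these counts.

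The genes most alike to each kinase were picked by the highest Pearson r of log2 CPM among 16882 genes over the 15 libraries, which share depth and RNA composition, so they carry no p. For Sik1 the first was Per1, a circadian clock gene and CREB target (r = 0.94, Spearman's rho = 0.89), followed by Dusp5, a MAP kinase phosphatase gene (0.92), Csrnp1 (0.92), Zscan2 (0.91) and Maml1, a Notch coactivator gene (0.91). With group means removed Per1 was still the first, at 0.95. For Hunk the first was Pcdh20, a protocadherin gene (r = 0.81, rho = 0.80), followed by Senp3, a SUMO protease gene (0.80), Nfatc4, a calcineurin-regulated transcription factor gene (0.79), Ednra, an endothelin receptor gene (0.74) and Pde8b, a cAMP phosphodiesterase gene (0.74). These 5 were picked over all 15 libraries, so the pick includes the contrast with sham that led to the choice of Hunk. With group means removed, Pcdh20 had an r of 0.29 with Hunk and ranked 2340. Senp3 then had 0.34 (rank 1660), Nfatc4 0.55 (238), Ednra 0.54 (283) and Pde8b 0.32 (1817). Nfatc4 averaged 1.18 CPM, near the minimum mean of 1 CPM set for this pick.

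Pcdh20 differed from sham by 0.21 after iTBS and 0.40 after cTBS on the log2 scale, so its likeness to Hunk lay mainly between groups. The 2 genes most like the other kinases were Kif5c, a kinesin gene, and the pseudogene Rpl17-ps5 for Brsk1, whose reads can be shared with other copies of Rpl17. They were Herc3 and Pip5k1c for Brsk2, Zmynd8 and Scaf8 for Sik2, Abl2 and Hdlbp for Sik3, and Ccdc92 and Sncb for Mark1. They were Ago1 and Hexim1 for Mark2, Mmp16 and Pspc1 for Mark3, and Irgq and Nrxn2 for Mark4. Their r lay between 0.89 and 0.97.

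**Figure D5:**
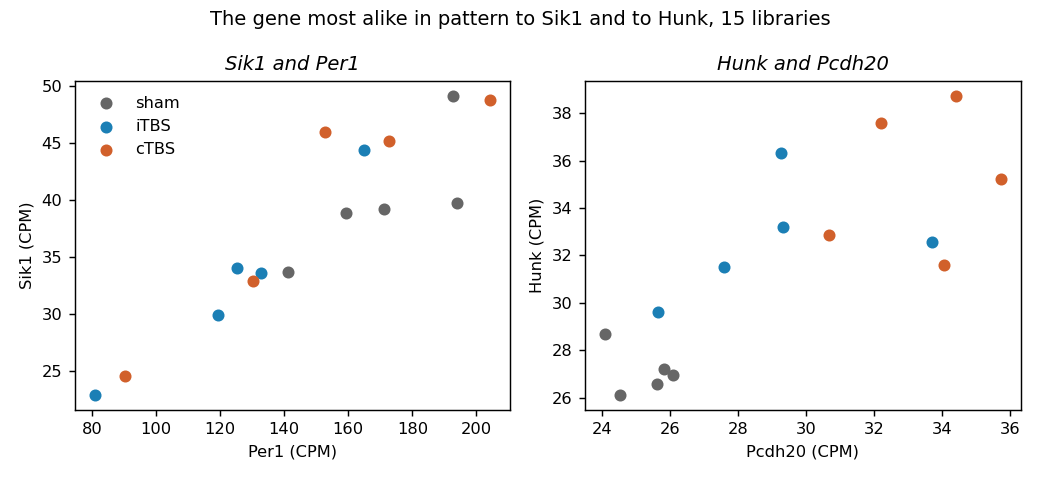
Sik1 against Per1 and Hunk against Pcdh20 in CPM, 1 point per library, coloured by group. Sik1 and Per1 (r = 0.94) follow each other within groups, whereas Hunk and Pcdh20 (r = 0.81) mostly separate the sham libraries from the others.

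No gene of the 6 pathway lists passed the adjusted threshold in edgeR in any comparison. Upstream of the family, 0 of 8 activator genes had an unadjusted p under 0.05 in edgeR in any comparison. The share of all tested genes was 1.93% with iTBS and 24.4% with cTBS, each set beside sham, and 30.6% between the protocols. With only 8 genes, nothing about the activators is read from this count. Stk11, which encodes LKB1, was at 0.11 ± 0.07 (SE, log2) for cTBS against sham, Cab39, the gene of its scaffold partner MO25, at 0.13 ± 0.07, and Camkk2, a calcium-dependent AMPK kinase gene, at 0.05 ± 0.07. Camkk2 differed most for iTBS against sham, at 0.12 ± 0.07, and Cab39 for iTBS against cTBS, at -0.14 ± 0.07. The median of the 8 genes was 0.03 for cTBS against sham, beside -0.02 for all genes.

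In the rest of the AMPK family, 10 of 11 genes were tested and Prkag3 was not. At an unadjusted p under 0.05 in edgeR, 0 differed for iTBS against sham (1.93% of all tested genes), and for cTBS against sham 1 was higher and 2 were lower (6.8% and 17.6% of all tested genes). Between the protocols 1 was higher and 1 lower in iTBS (20% and 10.6%). None passed the adjusted threshold, and the counts were near the background. Prkaa1, a catalytic subunit gene, was at 0.19 ± 0.08 (SE, log2; adjusted p = 0.176), Prkaa2, the other catalytic subunit gene, at 0.00 ± 0.07, and the regulatory subunit genes Prkab2 and Prkag2 at -0.18 ± 0.05 and -0.12 ± 0.05 (adjusted p = 0.144 and 0.165).

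Downstream of the SIKs, 2 of 10 coactivator, deacetylase and CREB family genes were lower for cTBS against sham at an unadjusted p under 0.05, near the 17.6% of all tested genes, and none was higher. For iTBS against sham 0 differed (1.93% of all tested genes), and between the protocols 1 was higher in iTBS (20%). The 2 lower genes were Hdac7, a class IIa deacetylase gene, at -0.61 ± 0.21, and Crtc2, a CREB coactivator gene, at -0.28 ± 0.13 (SE, log2; edgeR adjusted p = 0.144 and 0.197). Adjusted for the nuclear RNA level these were -0.06 and -0.01. Crtc1, the main neuronal coactivator gene, was at 0.07 ± 0.08, Crtc3 at -0.08 ± 0.08 and Atf1, a CREB family gene, at 0.04 ± 0.06 for cTBS against sham. The largest difference of Atf1 was for iTBS against sham, at 0.13 ± 0.06 (edgeR unadjusted p = 0.0534).

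Of 10 CREB target genes, 1 was lower for iTBS against sham at an unadjusted p under 0.05, beside 0.974% of all tested genes, and 2 were higher for cTBS against sham, beside 6.8%. Between the protocols 3 were lower in iTBS, beside 10.6%. Per1 was at -0.46 ± 0.19 (SE, log2; edgeR adjusted p = 1.00) for iTBS against sham. Ppargc1a, a mitochondrial biogenesis coactivator gene, was at 0.15 ± 0.05 for cTBS against sham (adjusted p = 0.144). The other was Fos, an immediate early gene named here after its values were seen, at 0.43 ± 0.19 (adjusted p = 0.193). Rgs2, a regulator of G protein signalling gene, was at -0.34 ± 0.11 for iTBS against cTBS (adjusted p = 0.0858).

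Among the 7 genes of 14-3-3 proteins, which bind phosphorylated SIK targets, 1 was higher for cTBS against sham at an unadjusted p under 0.05, beside 6.8% of all tested genes, and 3 were lower between the protocols, in iTBS, beside 10.6%. For iTBS against sham 0 differed in edgeR (1.93% of all tested genes). Ywhaq was at -0.29 ± 0.08, Ywhab at -0.24 ± 0.08 and Ywhae at -0.21 ± 0.10 (SE, log2) for iTBS against cTBS, with edgeR adjusted p of 0.0838, 0.0922 and 0.154. Adjusted for the nuclear RNA level they were at -0.12, -0.06 and -0.01, and 6 of the 7 genes fell as that level rose, beside 16.4% of all tested genes.

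Of 9 MARK and BRSK substrate genes, 1 was higher for cTBS against sham at an unadjusted p under 0.05, beside 6.8% of all tested genes. Between the protocols 1 was higher and 2 were lower in iTBS, beside 20% and 10.6%, and for iTBS against sham 0 differed (1.93%), so the counts were near the background. Cdk5, a neuronal kinase gene, was at 0.17 ± 0.07 (SE, log2; edgeR adjusted p = 0.163) for cTBS against sham. For iTBS against cTBS the microtubule-associated protein gene Map4 was at -0.19 ± 0.07 and the phosphatase gene Cdc25b at 0.34 ± 0.16 (adjusted p = 0.109 and 0.159). Within groups, 2 of the 9 genes rose and 5 fell with the nuclear RNA level at an edgeR adjusted p under 0.05. The shares of all tested genes were 28.6% and 16.4%. The slopes were 0.46 for Cdc25b, -0.15 for Map4 and -0.13 for Cdk5, and the part of that level in their group values was not tested.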

How the data were processed

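Total RNA from each cortex was depleted of ribosomal RNA and made into stranded libraries, per the labels' protocols. The submitters' processing notes name fastp, STAR, DESeq2 and GRCm39 (mm39), with no version, and the sources used here do not give the read counter or its strand setting. The authors deposited raw counts for 56748 gene identifiers and log2-scale variance-stabilized values for 45315. Symbols for 52073 identifiers (97.7% of counts) came from a GENCODE M21 table.

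Counts were tested with edgeR 4.0.16 (R 4.3.3) by the quasi-likelihood F test with 1 term per group over all 15 libraries, TMM scaling, filterByExpr and Benjamini-Hochberg adjustment over 22998 genes at 0.05. Log2 CPM used a prior count of 0.5. An SE is the fold change over the square root of F. DESeq2 1.42.0 and limma 3.58.1 (voom with sample quality weights on counts, trend on the variance-stabilized values) were alternatives, and the test was checked on simulated counts. Depth was 15385070 to 47807723 counts per library. The labels give 5 animals per group, and p-values measure the spread between these samples. The 10 genes, the gene lists and the alternatives were chosen with earlier results of these data known. Of each list the 3 genes with the smallest unadjusted p in any comparison are named, and Stk11, Prkaa1, Prkaa2, Crtc1, Crtc2 and Crtc3 always.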

Additional observations from a re-analysis of the deposited data

How the results depend on the processing

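Over the 11 alternatives the values of Hunk against sham, which led to its choice and are no support for its direction, ran from 0.22 to 0.30 for iTBS and 0.35 to 0.49 for cTBS, the last adjusted for the nuclear RNA and striatal levels. Sik2 kept its direction in all 3 comparisons under these alternatives and with each of the 15 libraries left out. Counts of calls were less stable. The number of genes past the adjusted threshold for cTBS against sham was 471 with DESeq2 and 5461 with limma-voom (quality weights throughout), and 0 to 5726 with 1 library left out. For iTBS against cTBS it was 2699 with DESeq2, 6853 with limma-voom and 5 with the replicate block, and 0 to 4474 with 1 library left out (4474 without iTBS 1, 3380 without cTBS 5, 3637 without sham 4). For iTBS against sham it was 0 to 0. Kinases past an unadjusted p of 0.05, Hunk against sham included, numbered 2 with the replicate block for iTBS against sham (1 to 2 with 1 library left out, the 2 without iTBS 5) and 4 with limma-voom for cTBS against sham (2 to 4, the 4 without sham 4). For iTBS against cTBS they numbered 2 with DESeq2, RLE size factors, the nuclear RNA level or both levels as covariates, and 3 with limma-trend or no filter (1 to 3). Slopes past the adjusted threshold numbered 2 with the replicate block (2 to 6), where Brsk1 and Mark2 missed it (adjusted p = 0.118 and 0.0882). The matching shares of all tested genes under each setting are not given here. Nothing about the kinases is therefore read from these counts, which also include the Hunk values that led to its choice. Same-numbered libraries of different groups had correlations of deviations from -0.54 to 0.69, above 0.1 in 7 of 15 pairs, so the numbers were not taken to pair them. The cause of these changes was not tested.

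No kinase whose sign turned had passed the adjusted threshold. For iTBS against sham the sign turned for Brsk1 0.039, Mark4 0.0038 with limma-voom, Mark4 0.0027 with adjustment for the nuclear RNA level, Brsk1 0.015, Mark4 0.035 with nuclear RNA and striatal levels as covariates, Mark4 0.023 with the library number as a covariate, Brsk2 -0.00019, Mark1 -0.0040 with sham 2, sham 5 and cTBS 4 left out. For cTBS against sham the sign turned for Sik1 0.015 with DESeq2, Sik1 0.0024 with RLE size factors, Sik1 0.028 with no filter on low counts, Brsk2 -0.11, Sik3 -0.068, Mark1 -0.036, Mark2 -0.064, Mark4 -0.12 with adjustment for the nuclear RNA level, Brsk2 -0.026, Sik3 -0.15, Mark2 -0.063, Mark4 -0.034 with nuclear RNA and striatal levels as covariates, Sik1 0.017 with the library number as a covariate, Brsk2 -0.0021 with sham 2, sham 5 and cTBS 4 left out. For iTBS against cTBS the sign turned for Brsk2 -0.027, Sik3 -0.040 with DESeq2, Sik3 -0.00024 with limma-voom, Brsk2 -0.030, Sik3 -0.040 with limma-trend, Brsk2 -0.011, Sik3 -0.025 with RLE size factors, Brsk2 -0.040, Sik3 -0.053 with no filter on low counts, Sik3 -0.011 with only the 2 groups compared, Mark1 0.045, Mark2 0.11, Mark4 0.12 with adjustment for the nuclear RNA level, Mark1 0.020, Mark2 0.11, Mark4 0.070 with nuclear RNA and striatal levels as covariates, Mark2 0.0068 with the library number as a covariate, Sik3 -0.012 with sham 2, sham 5 and cTBS 4 left out. For the nuclear RNA slope the sign turned for Mark3 -0.0075 with RLE size factors, Hunk -0.020, Mark3 -0.035 with no filter on low counts, Sik1 0.040, Sik2 0.020 with the replicate block, Sik1 0.065, Sik2 0.042 with the library number as a covariate, Sik1 0.014, Sik2 0.019 with sham 2, sham 5 and cTBS 4 left out. With 1 library left out the sign also turned for iTBS against sham Brsk1 (-0.060 to 0.046), Brsk2 (-0.0067 to 0.11), Mark1 (-0.028 to 0.050), Mark4 (-0.053 to 0.057), Sik3 (-0.027 to 0.066), for cTBS against sham Brsk2 (-0.022 to 0.13), Mark1 (-0.0064 to 0.11), Mark4 (-0.032 to 0.11), Sik1 (-0.082 to 0.13), Sik3 (-0.030 to 0.11), for iTBS against cTBS Brsk2 (-0.070 to 0.058), Mark2 (-0.071 to 0.013), Mark4 (-0.098 to 0.0093), Sik3 (-0.079 to 0.031), for the nuclear RNA slope Hunk (-0.017 to 0.046), Mark3 (-0.041 to 0.024), Sik1 (-0.19 to 0.043), Sik2 (-0.066 to 0.0043).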
